A study of Rattus norvegicus with 10 samples.

Results

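The cell cycle and DNA replication genes of the rat heart were followed here as 42 named genes, picked by name and found by symbol in the tissue count table of 31580 genes and in both matrices of single nuclei. The rule that chose them uses no measured value, but the genes were named with earlier results of these data known. All 42 genes passed the filter on low counts in tissue. RNA came from the area at risk, the heart muscle fed by the left coronary artery, which was closed by ligation and then reopened. Rats received vehicle or BT2, a small molecule named in the labels by its code alone, and all animals had the ischaemia and reperfusion injury. Tissue was sampled at 4 h and at 24 h, with 2 libraries in each of the 4 groups. Nuclei were profiled at 24 h as 1 library from vehicle and 1 from BT2 at 100 mg/kg, and no dose is stated for the tissue libraries. The sample titles count time from ligation and the series text counts it from the injury. Not given in the sources used here are the strain, sex and age of the rats and the number of animals behind a library, and no uninjured group was analysed. The p-values therefore reflect only the spread between libraries, which may be technical.

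A cell that divides first passes from G1 into S phase, in which the DNA is copied, and then through G2 into mitosis, in which the copies are parted. Cyclins and their kinases set the order of these steps. The MCM proteins are loaded onto DNA by Cdc6 and Cdt1 as the ring-shaped helicase that opens the double helix, and Pcna is the sliding clamp that holds DNA polymerase at the fork. E2F transcription factors drive the genes of S phase, and a later wave that includes FoxM1 and B-Myb drives the genes of mitosis. Most adult cardiomyocytes no longer divide, whereas fibroblasts, endothelial cells and immune cells of an injured heart can. Genes were ordered by role into 7 of G1 and S phase control, 11 of replication licensing and the fork, 3 of nucleotide supply, 6 of G2 and mitotic entry control and 15 of the mitosis machinery. For the comparison of replication with mitosis, 8 replication genes (Mcm2 to Mcm7, Cdc6, Pcna) were set against 18 mitosis genes, which are the mitosis machinery with Cdk1, Ccnb1 and Ccnb2.

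Promoters of both sets are shown because the E2F and CHR elements are known from promoters of S phase and mitosis genes. RefSeq promoter sequences (build GRCr8) matched 30 of the 42 genes by symbol, among them 6 of the 8 replication genes and 15 of the 18 mitosis genes. The 250 bases before the start were searched on both strands for the E2F words TTTCCCGC, TTTCGCGC, TTTGCCGC and TTTGGCGC, for the words TTTGAA and TTCGAA of the cell cycle genes homology region (CHR), the element bound by the MuvB core of the DREAM complex, and for CCAAT, the box bound by NF-Y. An E2F word stood in 4 of 6 replication promoters (66.7%) and in 1 of 15 mitosis promoters (6.67%), against 1.73% of the 33469 promoters in the table. A CHR word stood in 2 of 6 replication promoters (33.3%) and in 7 of 15 mitosis promoters (46.7%), against 17.4% of all promoters. CCAAT stood in 5 of 6 replication promoters (83.3%) and in 12 of 15 mitosis promoters (80.0%), against 34% of all. A match describes the letters of the window and is no evidence of binding. Below are the last 150 bases before the start, 5′ to 3′ on the strand of the gene, with every E2F, CHR and CCAAT word in capitals, of 4 replication genes with an E2F word (Mcm2 at chr4:122918095-122918244, minus strand; Mcm5 at chr19:13488663-13488812, plus strand; Mcm6 at chr13:42404353-42404502, minus strand; Mcm7 at chr12:22163179-22163328, minus strand) and of 4 mitosis genes with a CHR word beside CCAAT (Cdk1 at chr20:19265143-19265292, plus strand; Cdc20 at chr5:137255800-137255949, minus strand; Mki67 at chr1:199952594-199952743, minus strand; Top2a at chr10:84473094-84473243, minus strand).
Mcm2: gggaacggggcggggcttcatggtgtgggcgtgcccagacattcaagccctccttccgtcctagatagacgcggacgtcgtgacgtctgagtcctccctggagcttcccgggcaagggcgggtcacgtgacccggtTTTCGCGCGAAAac
Mcm5: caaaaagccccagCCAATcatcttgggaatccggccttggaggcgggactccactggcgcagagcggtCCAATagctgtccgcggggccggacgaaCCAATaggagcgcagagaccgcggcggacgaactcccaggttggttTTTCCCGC
Mcm6: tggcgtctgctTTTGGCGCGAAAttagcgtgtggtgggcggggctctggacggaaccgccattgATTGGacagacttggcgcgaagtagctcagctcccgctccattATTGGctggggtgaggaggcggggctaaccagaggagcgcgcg
Mcm7: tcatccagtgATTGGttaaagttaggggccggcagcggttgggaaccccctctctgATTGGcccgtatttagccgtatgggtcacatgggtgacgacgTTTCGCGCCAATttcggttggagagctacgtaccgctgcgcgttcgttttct
Cdk1: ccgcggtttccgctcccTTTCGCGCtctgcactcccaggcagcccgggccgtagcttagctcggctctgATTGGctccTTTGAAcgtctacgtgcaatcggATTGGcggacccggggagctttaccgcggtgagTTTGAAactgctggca
Cdc20: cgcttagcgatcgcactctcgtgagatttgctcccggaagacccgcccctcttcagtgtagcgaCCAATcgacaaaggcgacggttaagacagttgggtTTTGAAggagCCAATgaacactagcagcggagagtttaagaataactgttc
Mki67: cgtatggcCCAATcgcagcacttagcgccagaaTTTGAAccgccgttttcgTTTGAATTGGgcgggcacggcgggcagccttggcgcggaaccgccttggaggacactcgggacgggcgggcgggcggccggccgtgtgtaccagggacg
Top2a: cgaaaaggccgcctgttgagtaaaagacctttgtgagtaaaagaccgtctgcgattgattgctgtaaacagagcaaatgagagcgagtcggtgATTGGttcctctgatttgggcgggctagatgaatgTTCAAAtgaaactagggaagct
In Mcm2 and in Mcm6 the E2F words of both strands overlap, and in Mcm7 an E2F word runs into a CCAAT box. In Mki67 a CHR word runs into CCAAT on the other strand. Cdk1 holds an E2F word in addition to 2 CHR words and 2 CCAAT boxes.

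Tissue libraries held 10397310 to 24480984 counts, and libraries of one group correlated across genes at r = 0.981 to 0.990. Levels are CPM, a gene's count relative to the library total, scaled with TMM factors, which allow comparison of one gene between libraries but not of genes with each other. Fold changes are edgeR log2 values ± SE, p-values are edgeR quasi-likelihood values adjusted by Benjamini and Hochberg over 15216 tested genes, and a gene was called at an adjusted p under 0.05. The median log2 fold change of all tested genes at 24 h was -0.006. The 4 h and 24 h comparisons and the comparisons of time share libraries, so their values are given side by side.

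In vehicle, cell cycle transcripts rose together between 4 h and 24 h. Of the 42 genes 41 were higher at 24 h and 0 lower, where 23.3% of all tested genes were higher and 23.8% lower. The median log2 fold change was 2.63 over the 42 genes, 2.43 over the 8 replication genes and 2.75 over the 18 mitosis genes, that is 6.19-, 5.4- and 6.72-fold. The size and the order of the last 2 medians rested on the 4 h libraries, with 2.71 for replication and 3.38 for mitosis without vehicle 4 h replicate 1, and 2.18 and 2.12 without replicate 2. The exception was Ccnd1, cyclin D1 of early G1, with a log2 fold change of 0.20 ± 0.31 (edgeR adjusted p = 0.615). All 41 calls held when any single library was left out.

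E2f1, an activator of S phase genes, stood at 0.979 and 1.26 CPM in the vehicle libraries at 4 h and at 14.8 and 16.7 CPM at 24 h, a rise of 3.78 ± 0.22 on the log2 scale (edgeR adjusted p = 6.60e-05). Mybl2, which encodes the mitotic transcription factor B-Myb, rose by 3.92 ± 0.55 from 2.61 and 0.631 to 24.3 and 20.8 CPM. Its 4 h libraries differed from each other more than those of E2f1. Mcm5, a subunit of the replicative helicase, rose by 3.02 ± 0.17 from 6.64 and 6.66 to 52.0 and 55.8 CPM (edgeR adjusted p = 6.60e-05). Mki67, which encodes the proliferation antigen Ki-67, rose by 2.57 ± 0.40 from 16.6 and 6.45 to 67.7 and 65.8 CPM. Pcna rose least among the genes called, by 0.64 ± 0.14, from 54.2 and 70.9 to 99.0 and 96.3 CPM. The replicates at 24 h were close, while at 4 h vehicle replicate 1 stood above replicate 2 in 18 of 18 mitosis genes (median difference 1.05 on the log2 scale) and in 4 of 8 replication genes, against 49.8% of all tested genes.

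With BT2 the rise from 4 h to 24 h was called in fewer genes. It was called in 26 of 42 and a fall in 0, where 11.7% of all tested genes were higher and 11.6% lower. The median log2 fold change was 1.27 over all 42, 1.02 over the replication genes (6 of 8 called) and 1.32 over the mitosis genes (10 of 18 called), 2.41-, 2.02- and 2.5-fold. Cdc6, the loader of the helicase, rose by 2.81 ± 0.38, from 0.317 and 0.452 to 2.17 and 3.43 CPM (edgeR adjusted p = 0.00386). Pcna had a log2 fold change of -0.03 ± 0.14 with 52.8 and 50.2 CPM at 4 h and 46.4 and 54.6 CPM at 24 h, and Ccne1, cyclin E1 of the G1 to S transition, of 0.18 ± 0.31 with 1.27 and 1.75 and 1.45 and 2.0 CPM. In both genes the BT2 libraries of the 2 times overlapped. Fewer than 26 were called without BT2 24 h replicate 2 (9, of them 2 mitosis and 4 replication genes, where 3.47% of all tested genes were higher), without BT2 4 h replicate 1 (10, of them 2 and 4, where 3.40% were) and without BT2 4 h replicate 2 (12, of them 2 and 5, where 5.85% were). Without vehicle 24 h replicate 1 or replicate 2, which do not enter this contrast, 16 were called at a median of 1.26 in each case, among them 3 mitosis and 6 replication genes, where 7.91% and 7.93% of all tested genes were higher.

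**Figure D1:**
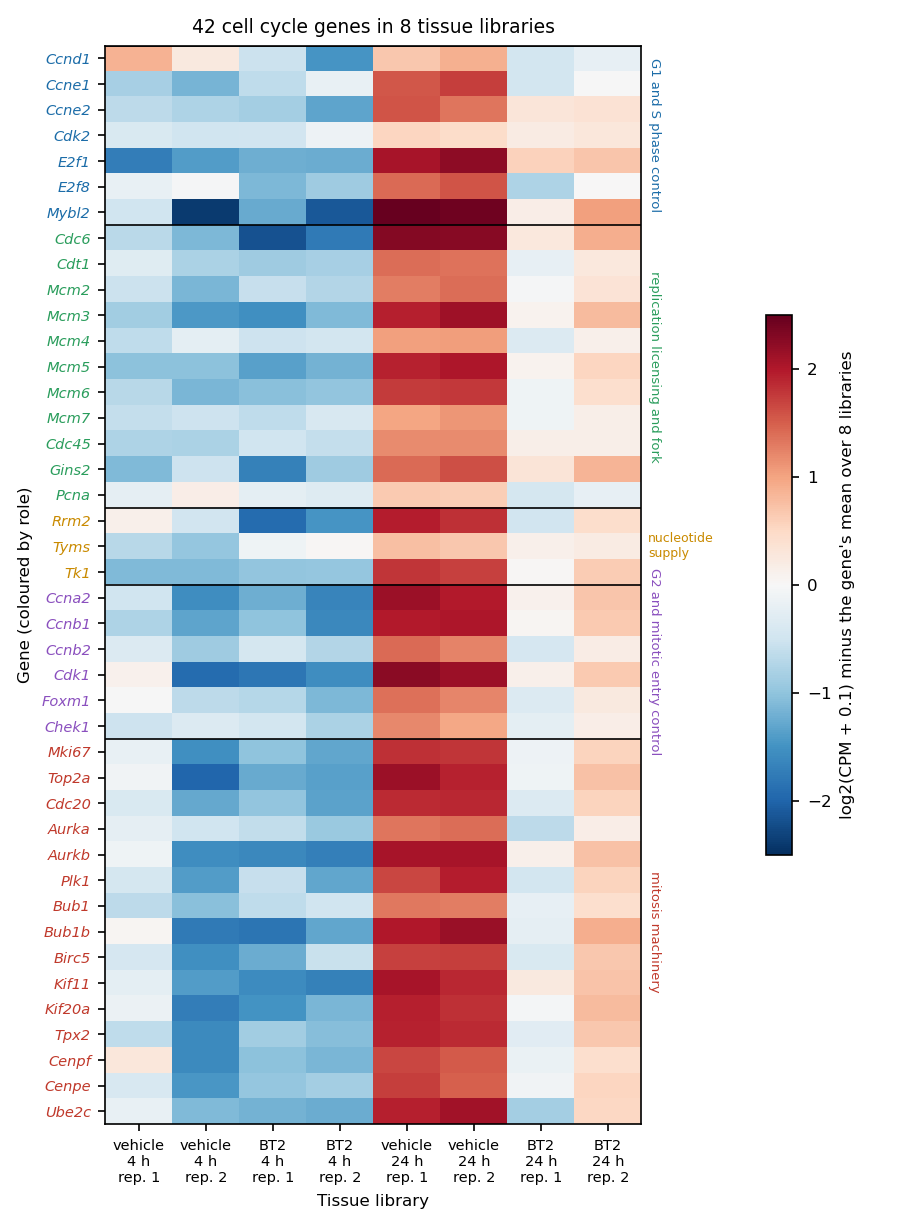
Heat map of the 42 genes (rows, coloured and grouped by role) in the 8 tissue libraries (columns), as log2(CPM + 0.1) minus the gene's mean over the 8 libraries. The highest value of each of the 42 genes lies in a vehicle library at 24 h, and for 41 of them the lowest lies in a library at 4 h. How often all tested genes show this order is not given here.

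At 24 h nearly every cell cycle transcript was lower with BT2 than with vehicle. Of the 42 genes 41 were lower and 0 higher, where 20.7% of all tested genes were lower and 18.9% higher. The median log2 fold change was -1.51, so vehicle levels were 2.85-fold those with BT2. In all 42 genes both BT2 libraries lay below both vehicle libraries. How many of all tested genes were separated in this way is not given here, so this count has no background. The genes called were spread over every role, with 6 of 7 in G1 and S phase control, 11 of 11 in licensing and the fork, 3 of 3 in nucleotide supply, 6 of 6 in G2 and mitotic entry control and 15 of 15 in the mitosis machinery. In bulk tissue, fewer cells of a type and less RNA per cell cannot be told apart.

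Among the genes of G1 and S phase control, Ccne1 had 6.07 and 6.88 CPM in vehicle and 1.45 and 2.0 CPM with BT2 at 24 h. It fell by 1.90 ± 0.27 on the log2 scale (edgeR adjusted p = 0.00172). Ccne2, which encodes cyclin E2, fell by 1.15 ± 0.21, from 11.1 and 9.36 to 4.52 and 4.69 CPM. The level of cyclin E1 mRNA with BT2 at 24 h was close to that at 4 h, whereas that of cyclin E2 was above it. E2f1 fell by 1.52 ± 0.18 and E2f8, an atypical E2F that represses S phase genes, by 1.86 ± 0.29. E2f1 stood at 5.24 and 5.71 CPM with BT2, and E2f8 at 6.52 and 7.25 CPM in vehicle against 1.36 and 2.41 CPM with BT2. Mybl2 fell by 1.91 ± 0.44, with 4.20 and 7.71 CPM in the BT2 libraries. Ccnd1 fell by 1.11 ± 0.31 (edgeR adjusted p = 0.0256), from 134 and 156 to 61.5 and 73.1 CPM. Cdk2, the kinase partner of cyclins E and A, was the gene not called, with 20.4 and 19.3 CPM in vehicle and 16.1 and 16.9 CPM with BT2, a log2 fold change of -0.27 ± 0.15 (edgeR adjusted p = 0.182). Its libraries did not overlap between the groups, although the gap was small.

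All 8 replication genes were lower at 24 h, with a median log2 fold change of -1.37. The 6 subunits of the MCM ring had falls from 1.02 to 1.65 on the log2 scale. Mcm5 fell by 1.65 ± 0.16 (edgeR adjusted p = 0.000555), from 52.0 and 55.8 to 14.6 and 19.7 CPM. Mcm6 fell by 1.58 ± 0.19, from 65.9 and 67.1 to 18.1 and 26.2 CPM. Mcm3 fell by 1.56 ± 0.25, from 49.7 and 56.5 to 13.7 and 22.2 CPM. The other 3 subunits fell less in size, with Mcm2 by 1.17 ± 0.19, Mcm4 by 1.14 ± 0.17 and Mcm7 by 1.02 ± 0.13. Mcm2, Mcm4 and Mcm7 were also the subunits with the smaller rise in vehicle, of 2.18 ± 0.21, 1.45 ± 0.18 and 1.60 ± 0.13. These comparisons share the vehicle libraries at 24 h, and differences between subunits were not tested.

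Cdc6 had the largest fall of the 8, by 1.69 ± 0.27, from 9.16 and 9.03 to 2.17 and 3.43 CPM, and Pcna the smallest, by 0.95 ± 0.14, from 99.0 and 96.3 to 46.4 and 54.6 CPM. With BT2, Pcna at 24 h lay at the level of the 4 h libraries, 54.2 and 70.9 CPM in vehicle and 52.8 and 50.2 CPM with BT2. Cdt1, the other loading factor, fell by 1.34 ± 0.22. Cdc45 and Gins2, parts of the active CMG helicase, fell by 1.05 ± 0.17 and 0.93 ± 0.31 (edgeR adjusted p = 0.0436 for Gins2). In nucleotide supply, Rrm2, the regulated subunit of ribonucleotide reductase, fell by 1.87 ± 0.32, from 11.9 and 10.9 to 2.12 and 4.08 CPM. Tk1, thymidine kinase of the salvage route, fell by 1.39 ± 0.19, from 38.6 and 36.3 to 11.3 and 17.3 CPM. Tyms, thymidylate synthase, fell by 0.55 ± 0.16, the smallest fall called among the 42, from 14.1 and 13.3 to 9.09 and 9.58 CPM.

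All 18 mitosis genes were lower at 24 h, with a median log2 fold change of -1.59 and values from -2.05 to -1.15. Ube2c, which encodes the ubiquitin-conjugating enzyme of the anaphase-promoting complex, had the largest fall, by 2.05 ± 0.41 (edgeR adjusted p = 0.00674). It stood at 14.8 and 16.4 CPM in vehicle and at 2.03 and 5.42 CPM with BT2, so the BT2 libraries were far apart. Cdc20, an activator of the same complex, fell by 1.70 ± 0.32, from 23.1 and 23.2 to 4.93 and 9.26 CPM. Cdk1, the kinase of mitotic entry, fell by 1.80 ± 0.45, from 32.2 and 29.7 to 7.23 and 10.5 CPM, and its partners Ccnb1 and Ccnb2 (cyclins B1 and B2) by 1.63 ± 0.26 and 1.49 ± 0.34. Mki67 fell by 1.56 ± 0.37, to 17.4 and 27.9 CPM. Top2a, the topoisomerase that untangles sister DNA, fell by 1.66 ± 0.48, from 60.0 and 51.9 to 12.6 and 22.7 CPM.

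The mitotic kinase genes Aurka, Aurkb and Plk1 fell by 1.57 ± 0.27, 1.62 ± 0.35 and 1.70 ± 0.39. Bub1 and Bub1b, kinases of the spindle checkpoint, fell by 1.15 ± 0.22 and 1.64 ± 0.49, and Birc5, which encodes survivin of the chromosomal passenger complex with aurora B, by 1.5 ± 0.41. The motor genes Kif11 and Kif20a fell by 1.48 ± 0.29 and 1.46 ± 0.41, the spindle factor Tpx2 by 1.62 ± 0.33 and the kinetochore genes Cenpf and Cenpe by 1.47 ± 0.45 and 1.36 ± 0.31. Upstream of mitosis, Ccna2 (cyclin A2) fell by 1.63 ± 0.30, Foxm1 by 1.33 ± 0.26 and the checkpoint kinase Chek1 by 1.12 ± 0.22. Bub1 and Chek1 were the smallest falls of their roles.

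The difference between the 2 medians, -1.59 for mitosis and -1.37 for replication, was not tested, and the BT2 libraries at 24 h lay further apart in the mitosis genes. BT2 24 h replicate 2 stood above replicate 1 in all 42 genes, against 49.3% of all tested genes with the higher level in replicate 1, by a median of 0.74 on the log2 scale in the mitosis genes and 0.45 in the replication genes. Without BT2 24 h replicate 1, 25 of the 42 genes were still called lower, among them 8 of 8 replication genes but 6 of 18 mitosis genes, and 9.58% of all tested genes were lower. The 16 genes lost were Aurkb, Birc5, Bub1b, Ccnb2, Ccnd1, Cdk1, Cenpe, Cenpf, Gins2, Kif11, Kif20a, Mki67, Mybl2, Plk1, Top2a and Tyms. Without BT2 24 h replicate 2 the median log2 fold change over the 42 genes was -1.88. Without vehicle 24 h replicate 1 there were 28 calls, 8 of 8 and 9 of 18, where 11.7% of all tested genes were lower, and without vehicle 24 h replicate 2 there were 30, 8 of 8 and 10 of 18, where 10.2% were. The median of the mitosis genes was -1.25 without BT2 24 h replicate 1 and -2.02 without replicate 2, and that of the replication genes -1.14 and -1.63.

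**Figure D2:**
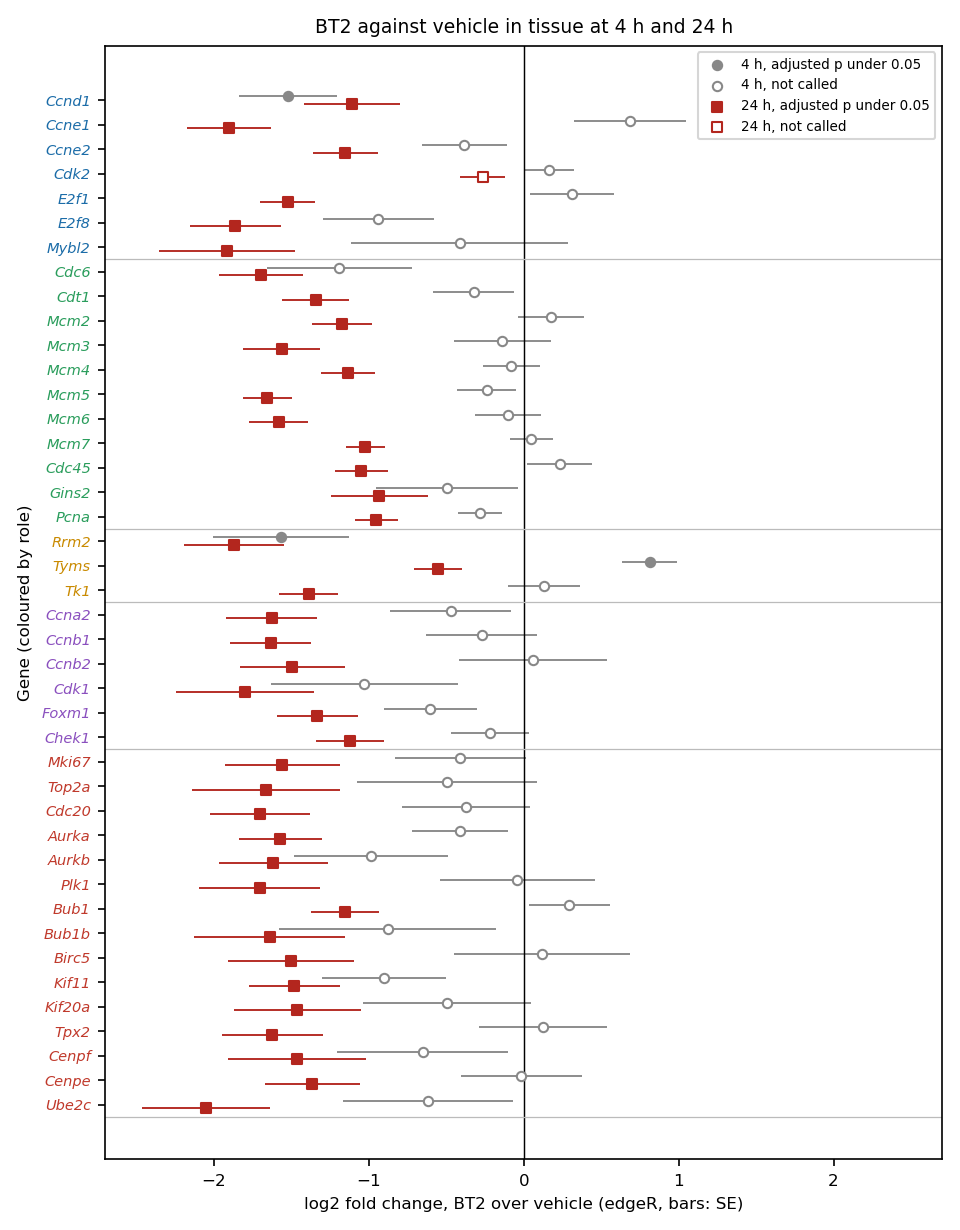
Log2 fold change of BT2 over vehicle (horizontal axis, edgeR, bars are SE) for the 42 genes (vertical axis, coloured by role), at 4 h (grey circles) and 24 h (red squares), with filled symbols for an adjusted p under 0.05. At 24 h every value lies below 0 and Cdk2 alone is open, while at 4 h the values scatter on both sides of 0.

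At 4 h few of these transcripts differed between BT2 and vehicle. Of the 42 genes 2 were lower and 1 higher, where 9.73% of all tested genes were lower and 6.67% higher. The median log2 fold change was -0.30, and its sign rested on 1 library, as it was 0.13 without vehicle 4 h replicate 1 and -0.52 without replicate 2. Ccnd1 fell by 1.52 ± 0.32 (edgeR adjusted p = 0.0233), from 153 and 99.5 CPM in vehicle to 58.2 and 30.2 CPM with BT2. Rrm2 fell by 1.57 ± 0.44 (edgeR adjusted p = 0.0449), from 3.26 and 2.10 to 0.714 and 1.02 CPM. Tyms rose by 0.81 ± 0.18 (edgeR adjusted p = 0.0234), from 5.11 and 4.21 to 7.69 and 8.52 CPM. The groups did not overlap in these 3 genes, but each call was lost on leaving out some single library, with 0 to 2 lower and 0 to 1 higher over the 8 omissions. Rrm2 and Tyms both serve the supply of deoxynucleotides and went in opposite directions.

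Of the 8 replication genes 0 were called at 4 h, and 1 had an unadjusted p under 0.05. Of all tested genes 9.73% were lower and 6.67% higher at 4 h, so few calls would be found in lists this short in any case. The share of all tested genes under that unadjusted limit is not given here. Mcm7 stood at 19.6 and 20.7 CPM in vehicle and 19.1 and 22.5 CPM with BT2, a log2 fold change of 0.05 ± 0.14. Mcm4 stood at 16.4 and 21.6 and 17.8 and 18.4 CPM, with -0.08 ± 0.19. In these genes the 4 libraries at 4 h overlapped. Cdc6 had the lowest value of the replication genes, -1.19 ± 0.47 (edgeR adjusted p = 0.117), with 1.09 and 0.771 against 0.317 and 0.452 CPM. Of the 18 mitosis genes 0 were called at 4 h, 0 had an unadjusted p under 0.05, and the median was -0.41. It was 0.37 without vehicle 4 h replicate 1 and -0.89 without replicate 2, with 0 and 1 genes called lower. For Cdk1, at 7.18 and 1.68 CPM in vehicle and 1.82 and 2.2 CPM with BT2, the vehicle libraries lay further apart than the groups.

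The BT2 effect itself was tested for a difference between 24 h and 4 h. It was lower at 24 h in 11 genes and higher in 0, where 2.43% of all tested genes had a lower and 4.72% a higher effect. These were 5 of the 8 replication genes (Mcm2, Mcm4, Mcm5, Mcm6 and Mcm7), Cdc45, the nucleotide genes Tyms and Tk1, the G1 and S phase genes Ccne1 and E2f1, and 1 of the 18 mitosis genes, Bub1. Ccne1 had the largest difference, -2.59 ± 0.45 (edgeR adjusted p = 0.0224), with a log2 fold change of 0.69 at 4 h and -1.90 at 24 h. Mcm5 had a difference of -1.41 ± 0.24 (edgeR adjusted p = 0.0222). Tpx2, with -1.75 ± 0.52 (edgeR adjusted p = 0.0854), and Plk1, with -1.66 ± 0.63 (edgeR adjusted p = 0.144), were as large in size but carried larger errors and were not called. The median was -1.16 over the 42 genes.

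The 11 calls of the difference were not stable to the loss of single libraries. Without BT2 4 h replicate 2, vehicle 24 h replicate 1, vehicle 24 h replicate 2 or BT2 24 h replicate 1 there were 0 calls among the 42. In these fits 0.101%, 0.0448%, 0% and 0.0193% of all tested genes had a lower effect, so 0 calls among 42 lay near the share over all genes, and the medians over the 42 were -1.20, -1.13, -1.20 and -0.89. There were 3 calls without vehicle 4 h replicate 2 (0.426% of all tested genes), 4 without BT2 4 h replicate 1 (0.464%), 14 without BT2 24 h replicate 2 (1.72%) and 17 without vehicle 4 h replicate 1 (3.48%). The counts of 5 of 8 replication and 1 of 18 mitosis genes became 4 of 8 and 7 of 18 without vehicle 4 h replicate 1, and 6 of 8 and 4 of 18 without BT2 24 h replicate 2. Whether the lists themselves differ was not tested.

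**Figure D3:**
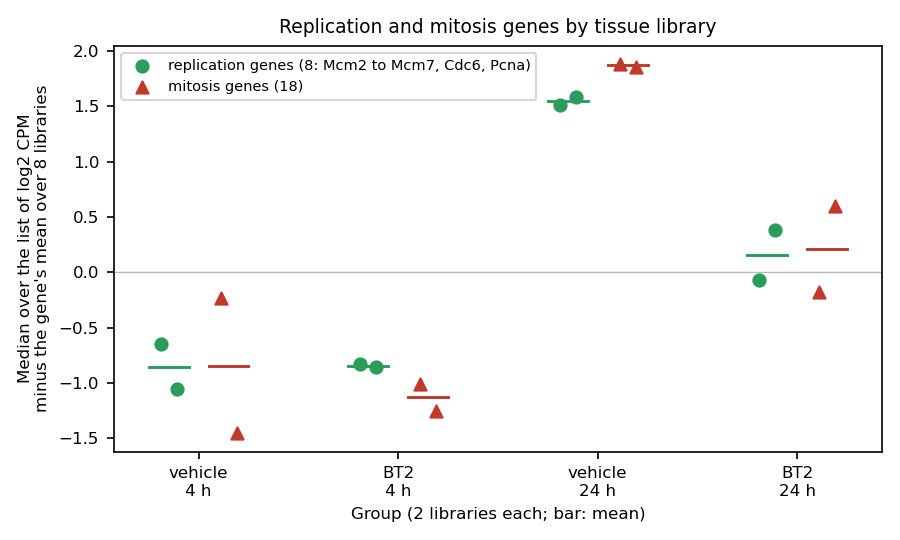
Median over the 8 replication genes (green circles) and over the 18 mitosis genes (red triangles) of each gene's log2 CPM minus its mean over 8 libraries (vertical axis), for each tissue library (points) with the mean of the 2 libraries of a group (bars). The vehicle libraries at 24 h lie at 1.51 and 1.58 for replication and 1.88 and 1.86 for mitosis, the BT2 libraries at 24 h between -0.18 and 0.60.

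Per library, the median of the replication genes minus that of the mitosis genes was -0.37 and -0.27 in vehicle at 24 h, against 0.11 and -0.22 with BT2 at 24 h. At 4 h it was -0.41 and 0.40 in vehicle and 0.18 and 0.40 with BT2. Both vehicle libraries at 24 h therefore lay further to the mitotic side than both BT2 libraries of that time. The nearest pair, -0.27 in vehicle and -0.22 with BT2, lay closer together than the 2 BT2 libraries. At 4 h the vehicle libraries fell on both sides of 0. With 2 libraries against 2 a two-sided exact permutation test cannot go below p = 0.333, so none was run.

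Genes of the pathway outside the 42 were taken from lists that were also chosen with earlier results of these data known. At 24 h, 20.7% of all tested genes were lower and 18.9% higher. At that time 31 of 43 tested other replication genes were lower and 1 was higher, and 45 of 55 other mitosis genes were lower and 0 higher. In DNA damage response and repair 16 of 22 were lower and 0 higher. Among pocket proteins, E2F and DREAM partners 8 of 16 were lower and 3 higher, among other cyclins, CDKs and their regulators 7 of 18 were lower and 2 higher, among CDK inhibitors 1 of 6 was lower and 2 higher, and among mitogen response genes 5 of 11 were lower and 1 higher. All other pathway genes together gave 113 of 171 lower and 9 higher, with a median log2 fold change of -1.0.

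The 9 genes of these lists that were higher with BT2 at 24 h, out of 171 and against 18.9% of all tested genes, included 2 CDK inhibitors and a pocket protein. Cdkn1c, which encodes the CDK inhibitor p57, stood at 1.70 and 1.62 CPM in vehicle and 5.24 and 5.18 CPM with BT2 and rose by 1.65 ± 0.22 (edgeR adjusted p = 0.00143). Cdkn1b, the inhibitor p27, rose by 0.49 ± 0.09, from 55.8 and 59.7 to 82.4 and 79.4 CPM. Rbl2, which encodes the pocket protein p130 of the repressive DREAM complex, rose by 0.65 ± 0.16, and Ccng2, cyclin G2, by 1.01 ± 0.21. Tfdp2, a partner of E2F, rose by 0.77 ± 0.13, whereas Tfdp1, its paralog, fell by 0.85 ± 0.09 and E2f4 by 0.69 ± 0.10. Ccng1 rose by 0.47 ± 0.16, Igf1, a growth factor, by 0.89 ± 0.18 and Rpa1, a subunit of the single-strand DNA binding complex, by 0.24 ± 0.08 (edgeR adjusted p = 0.0498). Cdkn1a, the inhibitor p21, was not called at 107 and 74.2 CPM in vehicle and 64.1 and 61.9 CPM with BT2 (log2 fold change -0.52 ± 0.19, edgeR adjusted p = 0.0591), and neither was Rb1, the retinoblastoma gene (0.26 ± 0.09, edgeR adjusted p = 0.0596). At 4 h Tfdp2, Rbl2 and Rpa1 were already called higher, with 0.81 ± 0.14, 0.61 ± 0.17 and 0.40 ± 0.09. E2f4 was already called lower, with -0.49 ± 0.11. Cdkn1c, Cdkn1b, Ccng1, Ccng2 and Tfdp1 were not called at 4 h. At that time 9.73% of all tested genes were lower and 6.67% higher.

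Among the genes lower at 24 h, Myc, a transcription factor of the growth response, fell by 1.70 ± 0.16 (edgeR adjusted p = 0.000587), from 105 and 83.6 to 24.4 and 33.4 CPM. It was already lower at 4 h, by 1.49 ± 0.16 (edgeR adjusted p = 0.00919), at 206 and 211 CPM in vehicle and 75.2 and 73.6 CPM with BT2. Hbegf, a ligand of the EGF receptor, fell by 2.14 ± 0.28 at 24 h. Cdk4, the partner of cyclin D1, fell by 0.66 ± 0.10, Ccnf by 1.86 ± 0.29 and Cdkn3, a phosphatase of Cdk1 and Cdk2, by 1.65 ± 0.34. Orc6 of the origin recognition complex fell by 1.41 ± 0.21 and Pold1, the catalytic subunit of DNA polymerase delta, by 0.88 ± 0.13. Cenpn of the kinetochore, Lmnb1 of the nuclear lamina and the repair gene Fanci fell by 1.49 ± 0.20, 1.34 ± 0.21 and 1.38 ± 0.22. Cdkn3 and Lmnb1 were also called lower at 4 h, with -1.75 ± 0.47 and -1.23 ± 0.23. Cdk4, Ccnf, Orc6, Pold1 and Cenpn were not called at 4 h.

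Some cell type markers moved with the same comparison, in which 20.7% of all tested genes were lower and 18.9% higher. The summed level of 8 cardiomyocyte markers was 22426 and 22624 CPM in vehicle and 49401 and 38034 CPM with BT2 at 24 h, and 7 of 8 were higher. The summed level of 11 monocyte or macrophage markers was 3144 and 3818 CPM in vehicle and 1193 and 1392 CPM with BT2, where 6 were lower, 1 was higher and 4 were not called. Of 7 tested fibroblast markers 2 were higher and 1, Postn, which encodes periostin, was lower, by 1.55 ± 0.25. The summed fibroblast level was 3562 and 3212 CPM in vehicle and 4353 and 3848 CPM with BT2. Col1a2, on the same list, had 0 counts in 7 of 8 libraries and was not tested, and no tested marker of these 3 lists was at 0 in any library. Their part in the lower cell cycle level was not tested, and the other cell type marker lists are not given here.

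The nuclei located these transcripts in the area at risk at 24 h. The vehicle library held 11540 barcodes with 45471510 unique molecular identifiers (UMIs) and the BT2 library 10497 with 32624251, and 37 barcodes occurred in both. After filtering, 11372 and 10324 nuclei remained with a median of 2465 and 2157 UMIs. Nuclear levels are CPM of all UMIs in the nuclei considered. With 1 library per group there is no test, and the 95% intervals below cover counting error only. Nuclei were grouped into 21 clusters without the use of the 42 genes or the other pathway genes, and 5 clusters stayed unnamed.

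All 42 genes had at least 20 UMIs, and each of them had more of its UMIs in cluster 10 than in any other cluster. Cluster 10 was fibroblast-like, with Adam12, Ltbp2, Bnc2 and Postn among its leading genes, and held 1170 vehicle and 1581 BT2 nuclei. It made up 10.3% of vehicle and 15.3% of BT2 nuclei but gave 47.8% and 73.5% of all UMIs of the mitosis genes and 29.6% and 50.5% of those of the replication genes. The share of a gene's UMIs in this cluster ran from 30.1% for Mcm2 to 66.0% for Cdk1. The other fibroblast-like cluster, cluster 12 (Aox3, Opcml, Scara5), had a summed mitosis level of 216 CPM in vehicle and 199 with BT2, against 1430 and 1603 in cluster 10.

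Nuclei with at least 3 of the 15 mitosis machinery genes made up 42% of cluster 10 in vehicle (exact 95% interval 39.1 to 44.9%) and 42.6% with BT2 (40.2 to 45.1%). After each nucleus was thinned to 1500 UMIs the shares were 23.3% and 24.5%, with 191 vehicle and 209 BT2 nuclei of lower depth left out. In the endothelial-like cluster 2 the unthinned share was 0.60% and 0.57% at a median of 2057 and 2224.5 UMIs, and in the neutrophil-like cluster 5, whose cells are known not to divide, 0.48% and 2.33% at 1252 and 1561 UMIs. Cluster 10 had a median of 3945.5 and 3844 UMIs. Its share was far above that of the neutrophil-like cluster, also after thinning, where the latter had 0.295% and 1.95%. Over all nuclei the share was 8.89% in vehicle (8.37 to 9.43%) and 9.08% with BT2 (8.53 to 9.65%), and 4.07% and 5.60% after thinning, with 2965 and 2967 nuclei left out.

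**Figure D4:**
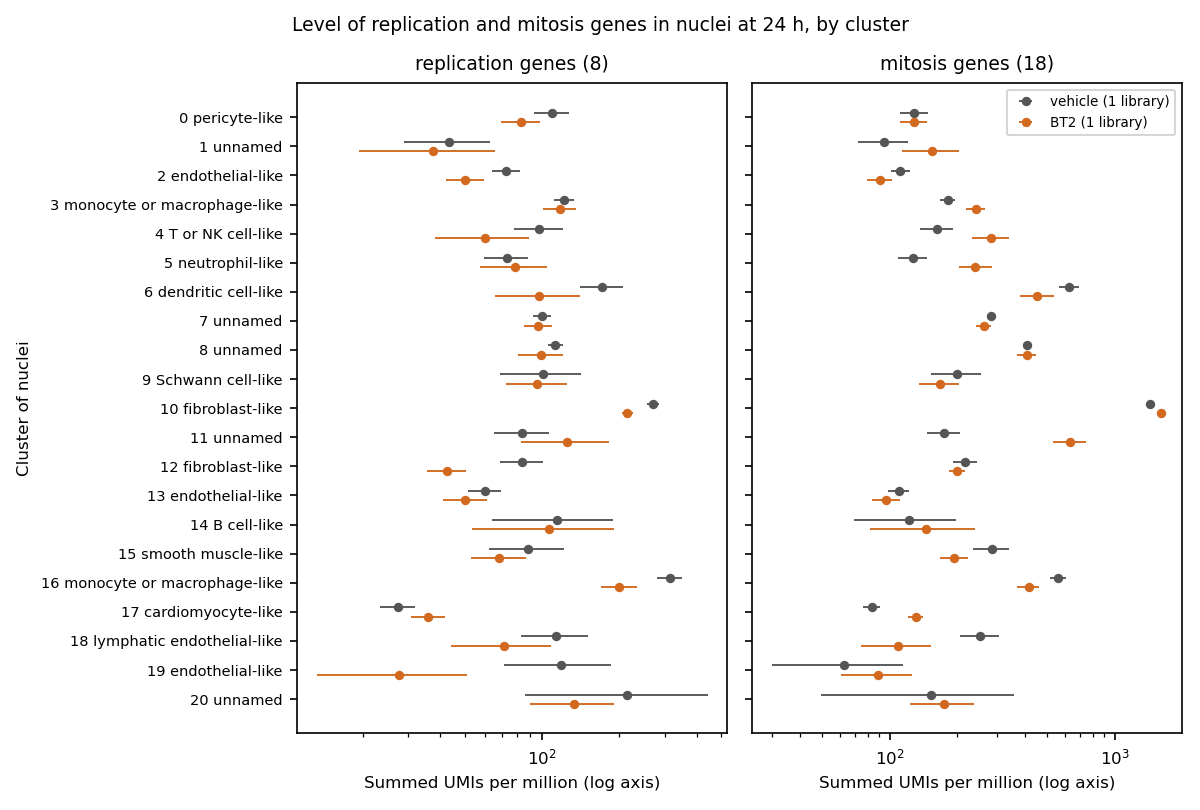
Summed UMIs of the 8 replication genes (left) and the 18 mitosis genes (right) as CPM of the UMIs of a cluster (horizontal log axes), for 21 clusters of nuclei (vertical axis), in vehicle (grey) and BT2 (orange), 1 library each, with exact 95% Poisson intervals as bars. Cluster 10 has the highest mitosis level in both libraries, and cluster 16 has the highest replication level in vehicle.

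These transcripts were also found in other clusters. The monocyte or macrophage-like cluster 16 (Cd163, Stab1) had a summed replication level of 315 CPM in vehicle and 200.3 with BT2, a ratio of 0.636 (0.520 to 0.775), and a mitosis level of 559 and 414, a ratio of 0.740 (0.642 to 0.852). In it 10.7% of vehicle nuclei (7.79 to 14.2%) and 4.93% of BT2 nuclei (2.95 to 7.68%) had at least 3 mitosis machinery genes, and 7.45% and 3.85% after thinning, at a median of 2267 and 1497 UMIs, and the part of depth was not tested. In the monocyte or macrophage-like cluster 3 (Spp1, Gpnmb) replication genes had a ratio of 0.965 (0.812 to 1.14) and mitosis genes of 1.34 (1.18 to 1.51). In the dendritic cell-like cluster 6 the ratios were 0.572 (0.366 to 0.869) and 0.721 (0.588 to 0.878). The cardiomyocyte-like cluster 17 had the lowest replication level in vehicle, 27.4 CPM, and ratios of 1.32 (1.06 to 1.64) and 1.57 (1.4 to 1.77). The unnamed clusters 7 and 8, which carried high doublet scores, gave 13.8% and 17.2% of the vehicle nuclei with at least 3 mitosis machinery genes and 5.87% and 3.84% of those of BT2. Doublets were not removed.

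Summed over all nuclei and over cluster 10, the replication genes and the mitosis genes parted. Over all nuclei the replication genes had 114 CPM in vehicle and 105 with BT2, a ratio of 0.919 (0.880 to 0.960). The mitosis genes had 375 and 538, a ratio of 1.44 (1.41 to 1.47). In cluster 10 the ratios were 0.794 (0.741 to 0.852) and 1.12 (1.09 to 1.15). The ratio over all nuclei was above 1 in 32 of 42 genes, where 45.4% of 18100 features with at least 20 UMIs were above 1 and 54.6% below. It was above 1 in 2 of 8 replication genes and in 17 of 18 mitosis genes. In cluster 10 it was above 1 in 13 of 42 genes and below 1 in 29, where 43.0% of 13623 features were above 1 and 57.0% below. All 8 replication genes were below 1 there, while 10 of the 18 mitosis genes were above 1. In the fibroblast-like class, 14.1% of vehicle and 29.0% of BT2 nuclei, 37 of 42 genes were below 1 and 5 above. Of genes with at least 20 UMIs, 24 of 32 were below 1 in the endothelial-like class and 8 above. In the monocyte or macrophage-like class 24 of 37 were below and 13 above. In the cardiomyocyte-like class 4 of 32 were below and 28 above. The share of all features is not given for these classes. The part of the mix of nuclei was not tested.

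By gene, Mcm3 had the lowest ratio in cluster 10, 0.655 (0.555 to 0.773), with a level of 53.5 CPM in vehicle and 35.0 with BT2. Mcm4 had 0.805 (0.689 to 0.940), Mcm7 0.773 (0.624 to 0.959) and Cdc45 0.785 (0.679 to 0.908). Rrm2 and Tk1 had 0.684 (0.473 to 0.989) and 0.796 (0.695 to 0.913). These genes of S phase lay below 1 with their whole interval. Of the 8 replication genes 3 did so, Mcm3, Mcm4 and Mcm7, and the intervals of the others included 1. Pcna, with 53 and 73 UMIs, had 0.973 (0.674 to 1.41), an interval too wide to place it.

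Mitosis genes in cluster 10 varied with the gene, with a median ratio of 1.01 over the 18. All 6 genes of G2 and mitotic entry control, Cdk1, Ccnb1 and Ccnb2 among them, were below 1 there. Cenpf had the highest ratio, 1.41 (1.31 to 1.51), at 204 CPM in vehicle and 287 CPM with BT2. Cenpe had 1.25 (1.15 to 1.36) and Mki67 1.21 (1.13 to 1.29). These 3 genes had intervals above 1. Birc5, with 0.769 (0.633 to 0.935), and Cdk1, with 0.835 (0.709 to 0.984), had intervals below 1. Tpx2 had 0.984 (0.901 to 1.07) and Top2a 1.05 (0.975 to 1.14). Genes with few nuclear UMIs, such as Ube2c with 1.14 (0.645 to 2.07), could not be placed at this depth.

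Tissue and the pool of all nuclei thus gave different readings at 24 h. Of the 41 genes lower with BT2 in tissue, 31 had a nuclear ratio above 1 over all nuclei. In cluster 10, 12 of them had a ratio above 1 and 29 below. Of all features with at least 20 UMIs, 45.4% were above 1 over all nuclei and 43.0% in cluster 10. The same shares among all genes lower in tissue are not given here. For Mki67 the tissue log2 fold change was -1.56 ± 0.37 and the ratio over all nuclei 1.55 (1.47 to 1.63). For Mcm3 the tissue value was -1.56 ± 0.25 and the ratio 0.829 (0.746 to 0.921). The median ratio over the 8 replication genes was 0.387 in tissue, 0.902 over all nuclei and 0.820 in cluster 10, and over the 18 mitosis genes 0.331, 1.26 and 1.01. Tissue libraries hold cytoplasmic and nuclear polyadenylated RNA of all cells, and nuclear libraries hold the nuclear RNA of nuclei that passed isolation. The dose in tissue is not given, and no animal is stated to be shared between the assays. The part of these differences was not tested. Postn, a leading gene of cluster 10, fell by 1.55 ± 0.25 in tissue at 24 h, from 332 and 337 to 91.9 and 136 CPM, while cluster 10 made up a larger share of the BT2 nuclei.

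**Figure D5:**
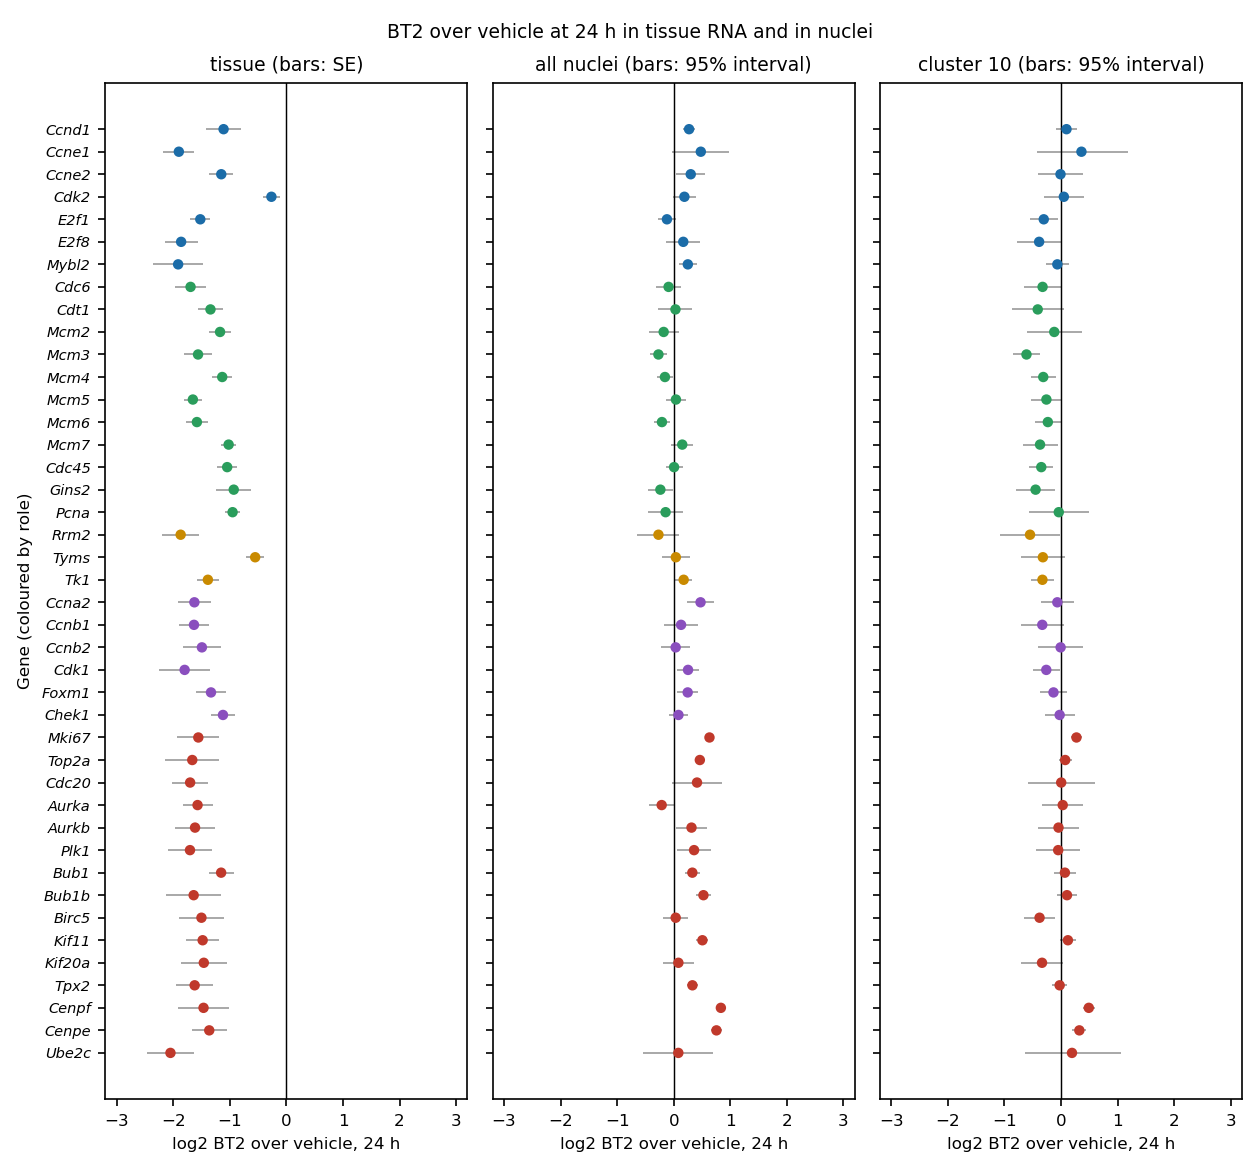
Log2 of BT2 over vehicle at 24 h (horizontal axes) for the 42 genes (vertical axis, coloured by role) in tissue (left, edgeR, bars are SE, 2 libraries per group), over all nuclei (middle) and in the fibroblast-like cluster 10 (right), both with exact 95% counting intervals from 1 library per group. Tissue values all lie below 0, the ratio over all nuclei is above 1 for 32 genes, and in cluster 10 all 8 replication genes lie below 1.

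Within cluster 10, nuclei with mitosis machinery genes carried replication genes more often than nuclei without. Among nuclei with 0 of the 15 mitosis machinery genes, 30.6% in vehicle and 29.9% with BT2 had a UMI of at least 1 replication gene. Among those with 6 to 9 it was 72.4% and 57.6%, and among those with 10 or more 59.6% and 67.4%. The median depth rose along the same classes, from 2769 to 10160 UMIs in vehicle and from 2926.5 to 10821 with BT2, and the part of depth was not tested. Nuclei with 10 or more of the 15 genes numbered 52 of 1170 in vehicle (4.44%) and 89 of 1581 with BT2 (5.63%).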

How the data were processed

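Per the submitters' processing notes, reads were handled with Trim Galore, STAR, featureCounts and Cell Ranger on the rat build Rnor_6.0. Cell Ranger was version 8.0.1 per the file headers. Not given in the sources used here are other versions, the annotation, the strand setting and the use of introns. The authors deposited raw counts per gene for 31580 genes in 8 tissue libraries and UMI counts for 39537 features in 2 nuclear libraries.

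The 42 members and all gene lists were chosen with earlier results of these data known. Of 318 list entries, 311 matched by symbol, 5 by a synonym and 2 did not match. All 42 members are named. Of each other pathway list the 2 genes with the smallest p among those called in each direction at 24 h are named, with Cdkn1a, Rb1 and Myc in any case. A gene picked by this rule is not reported here. Nuclear clusters and single nuclear genes were picked for the text after their values were seen.

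Tissue counts were fitted with edgeR 4.0.16 (R 4.3.3; filterByExpr, TMM, robust quasi-likelihood, 4 residual degrees of freedom, biological coefficient of variation 14.3%), checked on simulated counts. Deviations of libraries with one number correlated at -0.046 to 0.097, so numbers were not treated as pairs. Nuclei that had 500 or more UMIs, 200 or more genes and no more than 5% mitochondrial UMIs were clustered with scanpy 1.11.5 (1991 variable genes, 30 components, 15 neighbours, resolution 0.5). Limits for cluster names were set after the clusters were seen. Ratios have exact binomial 95% intervals, levels exact Poisson ones, shares Clopper-Pearson ones. Alternatives were DESeq2 1.42.0, other scaling, no filter, a replicate block, single times and the omission of each library. Scrublet marked 1 and 0 nuclei as doublets. UMIs limit PCR repeats, but intervals cover counting error only.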

Additional observations from a re-analysis of the deposited data

Results flagged for a closer look

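In 11 genes the BT2 effect on the log2 scale differed between 24 h and 4 h by a test of the difference itself (edgeR, adjusted over all tested genes). All 11 differences were negative, where 2.43% of all tested genes had a lower and 4.72% a higher effect at 24 h. They were -1.35 for Mcm2, -1.05 for Mcm4, -1.41 for Mcm5, -1.48 for Mcm6 and -1.07 for Mcm7. The helicase partner Cdc45 had -1.28, and the nucleotide genes Tk1 and Tyms had -1.52 and -1.37. Ccne1 and E2f1 of the G1 to S transition had -2.59 and -1.83, and the checkpoint kinase gene Bub1 had -1.45. Adjusted p-values lay between 0.0222 and 0.0467. In Tyms the direction itself turned, from 0.81 at 4 h to -0.55 at 24 h, both called. As described above, these calls were not stable to the loss of single libraries. Groups of 2 libraries are too small to mark a single library as outlying.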

How the results depend on the processing

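Lower calls at 24 h numbered 41 in the reported fit and 33 to 41 with DESeq2, RLE or upper quartile factors, no filter, the replicate block or the libraries of that time alone. Over the 8 omissions of 1 library they ran from 25 to 41. Of the 41 genes, 25 kept their call in every setting run. Lower calls at 4 h (2) became 1 with upper quartile factors, without a filter and with the replicate block, and 0 with the libraries of that time alone, where the higher call (1) became 0 too; over omissions they ran from 0 to 2 lower and 0 to 1 higher. The difference of the BT2 effect had 8 lower calls with the replicate block against 11 without, and 0 to 17 over omissions. Higher calls from 4 h to 24 h with BT2 ran from 9 to 29 over omissions and were 20 with the replicate block against 26. In vehicle they stayed at 41 over omissions. Within the lists the replicate block left 5 of 18 mitosis genes called higher from 4 h to 24 h with BT2 against 10, 3 of 15 mitosis machinery genes against 8, and 0 of 18 mitosis genes against 1 for the difference of the BT2 effect. Without a filter 6 of 18 mitosis genes were called in that rise with BT2. Library numbers were not treated as pairs in the reported fit, and the labels do not say whether they mark any. Higher calls at 24 h were 0 in every setting. No called gene changed sign in any setting. Among genes not called, 77 sign changes were counted over the settings and comparisons. Over all tested genes, lower calls at 24 h were 3143 of 15216 in the reported fit, 2950 of 14964 with DESeq2 and 3013 of 22074 without a filter. They were 3189, 2867 and 3031 of 15216 with RLE factors, upper quartile factors and the replicate block. With the libraries of that time alone they were 3425 of 14943. Shares for some omissions are given above.

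The medians at 24 h ranged over omissions from -1.63 to -1.14 for replication and from -2.02 to -1.25 for mitosis genes. At resolution 1.0, 2240 of the 2751 nuclei of cluster 10 lay in 2 clusters, 1 of them fibroblast-like and 1 (Inhba, Has2) unnamed, and over the 2296 nuclei of both the mitosis ratio was 1.16. The share with at least 3 mitosis machinery genes in vehicle was 9.92% with at least 1000 UMIs and 4.07% after thinning over all nuclei, 12.7% with at least 2 and 5.36% with at least 5 genes. With BT2 these were 10.2%, 5.60%, 12.6% and 5.71%. In cluster 10 they were 23.3% after thinning, 51.9% with at least 2 and 26.8% with at least 5 genes in vehicle, and 45.5% with at least 1000 UMIs, 24.5%, 51.6% and 29.5% with BT2. Without the unnamed clusters, chosen after seeing the data, the share over all nuclei was 7.06% in vehicle, 9.04% with BT2 and the mitosis ratio 1.45. Depth limits nuclear ratios of genes with few UMIs.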

Other observations

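At 4 h, 7 of 11 tested mitogen response genes were lower with BT2 and 1 was higher, where 9.73% of all tested genes were lower and 6.67% higher, while 2 of the 42 cell cycle genes were lower. Hbegf, which encodes a growth factor of the EGF family, stood at 148 and 247 CPM in vehicle and at 37.3 and 24.6 CPM with BT2 at 4 h, a fall of 2.68 ± 0.27 on the log2 scale (edgeR adjusted p = 0.00919). At the same time 5 of 43 other replication genes were higher and 0 lower, and in DNA damage response and repair 0 of 22 were higher and 2 lower.

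In vehicle at 4 h the 2 libraries differed in the ratio of mitosis to replication RNA. The summed CPM of the 18 mitosis genes over that of the 8 replication genes was 0.737 in replicate 1 and 0.286 in replicate 2, against 0.435 and 0.390 with BT2. The summed level of 8 neutrophil markers was 572 CPM in replicate 1 and 1812 CPM in replicate 2, and their part in the difference was not tested. Levels of the other cell type marker lists in these libraries are not given here. At 24 h the mitosis to replication ratio was 0.968 and 0.895 in vehicle and 0.627 and 0.817 with BT2.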
